A study of Mus musculus with 20 samples.

Results

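The 54 genes described here are cell cycle genes: 23 S-phase genes, from Mcm2 to E2f1, whose products copy DNA, 26 G2/M genes, from Top2a to Plk1, whose products build and run the mitotic spindle, and 5 regulators, the D-type cyclins Ccnd1, Ccnd2 and Ccnd3 and the cyclin-dependent kinase inhibitors Cdkn1a and Cdkn1b. They were taken by symbol, a rule that itself uses no measured value, and all 54 were found once among the 31053 genes of the count matrices. They were followed in the stromal (42709 cells), vascular (13367) and immune (54424) cells of interscapular brown fat (iBAT) of mice, from its stromal vascular fraction, out of 126274 cells kept.

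A cell that divides passes from G1 through S phase, in which its DNA is replicated, and through G2 into mitosis. D-type cyclins activate Cdk4 and Cdk6, which phosphorylate the retinoblastoma proteins and release the E2F factors that switch on S-phase genes, and a later program, read through CHR and CCAAT elements, switches on the genes of mitosis. Cdkn1a (p21) and Cdkn1b (p27) hold cyclin-dependent kinases in check. In adipose tissue, stromal cells include the adipocyte progenitors, and recruitment of brown adipocytes in the cold is known to draw on proliferating progenitors.

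Each of the 10 experiments pooled 3 to 4 mice of 8 to 14 weeks and gave a library of cells that carry immune lineage markers (Lin+) and a library of cells that lack them (Lin-), so 20 libraries in all. Male C57BL/6J mice lived at 24 °C (room temperature, RT), spent 4 days at 6 °C (cold), or stayed at 24 °C with a pump that delivered the β3-adrenergic agonist CL316,243 (CL, 0.75 nmol per hour) over 4 days, with 2 experiments per treatment. Female mice of the Adrb1 line, which is floxed at the β1-adrenergic receptor gene, gave 1 experiment per group: WT (Adrb1 fl/fl; Pdgfra-CreER -/-) and KO (Adrb1 fl/fl; Pdgfra-CreER +/-), each at RT and in the cold. All mice of that line received tamoxifen, and the Pdgfra promoter limits recombination to cells that express Pdgfra. In the Adrb1 line the RT libraries were made with version 3 of the 10x kit and the cold libraries with version 2. The study's methods add that its treatments were collected on different days. In that line kit, collection day and temperature thus cannot be told apart. The C57 libraries all came from version 2. The unit of replication was the pool of mice.

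Libraries held 7857160 to 41979800 corrected UMIs (unique molecular identifiers, the counted mRNA molecules) after filtering. The Lin- library of RT replicate 2 stood apart, since only 28.0% of its barcodes passed the filter on mitochondrial mRNA. In CL replicate 2 the Lin+ and Lin- libraries shared 1098 cell barcodes, 16.4% of the Lin+ cells, of which 1082 held fewer UMIs in the Lin+ library, and in the other experiments they shared 2 to 126. Without the shallower copy of those cells, the count of members whose cold response differed between stromal and vascular cells went from 29 to 27. The classes carried their own markers: in the stromal class 10 stromal markers summed to 20626 to 50032 CPM (corrected UMI counts scaled to a common class total) against 2.37 to 35.0 CPM for 10 immune markers, and in the immune class 10 immune markers summed to 8902 to 14318 CPM against 55.3 to 288 CPM for the stromal ones. In the vascular class 10 endothelial and 10 mural markers summed to 3949 to 9266 and 3677 to 18099 CPM, and markers of other types were present too, with 459 to 3360 CPM for the 10 stromal, 46.1 to 1060 CPM for the 8 adipocyte and 90.8 to 166 CPM for the 10 immune markers. No marker of these lists was at 0 in every experiment.

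The promoters of the S-phase and G2/M genes differed in short sequence words that the choice of genes did not use. RefSeq promoters of build GRCm38.p6 (250 bases before to 50 after the start of transcription) matched 46 of the 54 genes. E2F words (TTTGGCGC, TTTCGCGC, TTTGCCGC or TTTCCCGC, on either strand) were found in 8 of 22 promoters of S-phase genes (36.4%) and in 1 of 24 of G2/M genes (4.17%), against 2.26% of all 32851 promoters counted. The count leaves out the promoters of a single chromosome. CHR words (TTTGAA, and with it the variant TTCGAA, on either strand) were found in 20 of 24 G2/M promoters (83.3%) and 3 of 22 S-phase promoters (13.6%), against 19.2% of all. CCAAT, on either strand, was found in 21 of 24 (87.5%), 14 of 22 (63.6%) and 37.4%. A CHR word together with CCAAT was found in 19 of the 24 G2/M promoters (79.2%), in 3 of the 22 S-phase promoters and in 7.52% of all. Of the regulators, Ccnd3, Cdkn1a and Cdkn1b had promoter entries, 5 in all, and these held none of the E2F or CHR words and CCAAT in 2 of 5. Ccnd1 and Ccnd2 were not among the matched genes.

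The 250 bases before the start of 3 S-phase genes are shown because they carry E2F words, which are in capitals as are CCAAT boxes of either strand. In Mcm5 and Mcm6 a pair of E2F words on opposite strands overlaps into a single run.
Mcm5, chr8:75109259-75109508, plus strand: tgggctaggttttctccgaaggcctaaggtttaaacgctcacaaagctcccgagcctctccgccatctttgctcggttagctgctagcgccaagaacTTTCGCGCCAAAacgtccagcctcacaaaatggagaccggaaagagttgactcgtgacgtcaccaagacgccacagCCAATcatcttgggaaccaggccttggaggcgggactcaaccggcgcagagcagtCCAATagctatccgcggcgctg
Mcm6, chr1:128359706-128359955, minus strand: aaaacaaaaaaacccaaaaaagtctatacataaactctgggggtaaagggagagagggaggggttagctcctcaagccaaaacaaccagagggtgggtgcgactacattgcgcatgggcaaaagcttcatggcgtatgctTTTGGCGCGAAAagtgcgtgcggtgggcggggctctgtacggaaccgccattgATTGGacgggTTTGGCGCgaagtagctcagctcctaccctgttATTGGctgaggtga
Uhrf1, chr17:56304063-56304312, plus strand: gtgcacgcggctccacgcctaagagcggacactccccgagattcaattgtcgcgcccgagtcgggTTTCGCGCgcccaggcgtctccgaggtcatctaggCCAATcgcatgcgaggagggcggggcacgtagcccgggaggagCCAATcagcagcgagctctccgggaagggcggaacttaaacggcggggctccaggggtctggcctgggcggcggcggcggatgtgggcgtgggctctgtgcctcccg

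The same window of 3 G2/M genes is shown for its CHR words and CCAAT boxes, in capitals. Cdk1 was the G2/M gene that also held an E2F word, and Top2a held 4 CHR words and 6 CCAAT boxes.
Cdk1, chr10:69352913-69353162, minus strand: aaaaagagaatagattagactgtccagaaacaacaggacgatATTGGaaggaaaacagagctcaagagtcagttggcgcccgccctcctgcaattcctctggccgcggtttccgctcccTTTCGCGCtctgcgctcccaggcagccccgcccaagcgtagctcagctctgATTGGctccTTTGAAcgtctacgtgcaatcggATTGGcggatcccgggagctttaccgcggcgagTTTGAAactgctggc
Top2a, chr11:99024190-99024439, minus strand: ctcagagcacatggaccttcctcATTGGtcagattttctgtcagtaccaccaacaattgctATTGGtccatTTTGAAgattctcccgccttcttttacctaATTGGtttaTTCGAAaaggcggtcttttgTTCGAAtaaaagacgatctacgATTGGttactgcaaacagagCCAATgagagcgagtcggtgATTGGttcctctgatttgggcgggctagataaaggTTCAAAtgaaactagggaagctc
Mki67, chr7:135716380-135716629, minus strand: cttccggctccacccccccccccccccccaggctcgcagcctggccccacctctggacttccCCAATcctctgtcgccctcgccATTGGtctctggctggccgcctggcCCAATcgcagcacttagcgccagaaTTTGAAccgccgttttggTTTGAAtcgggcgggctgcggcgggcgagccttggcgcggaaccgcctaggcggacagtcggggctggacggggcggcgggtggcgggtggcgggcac

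In the stromal class, cell cycle mRNA was low at RT and far higher in the cold. The 26 G2/M genes together stood at 81.8 and 64.3 CPM in the RT pools of C57 mice and at 2116 and 1089 CPM in the cold pools, a 21.9-fold ratio of means. The 23 S-phase genes together stood at 277 and 418 CPM at RT and at 1668 and 878 CPM in the cold, a 3.66-fold ratio. Cold pools lay above RT pools for both lists, and in C57 mice the G2/M sum was below the S-phase sum at RT and above it in the cold. In the CL pools the sums differed between replicates: 926 and 344 CPM for S phase and 1280 and 223 CPM for G2/M, so CL replicate 1 lay with the cold pools and the S-phase sum of CL replicate 2 lay between the RT pools. A class sum does not tell more cells with these mRNAs from more mRNA per cell, which the shares of cells further on address in part.

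**Figure D1:**
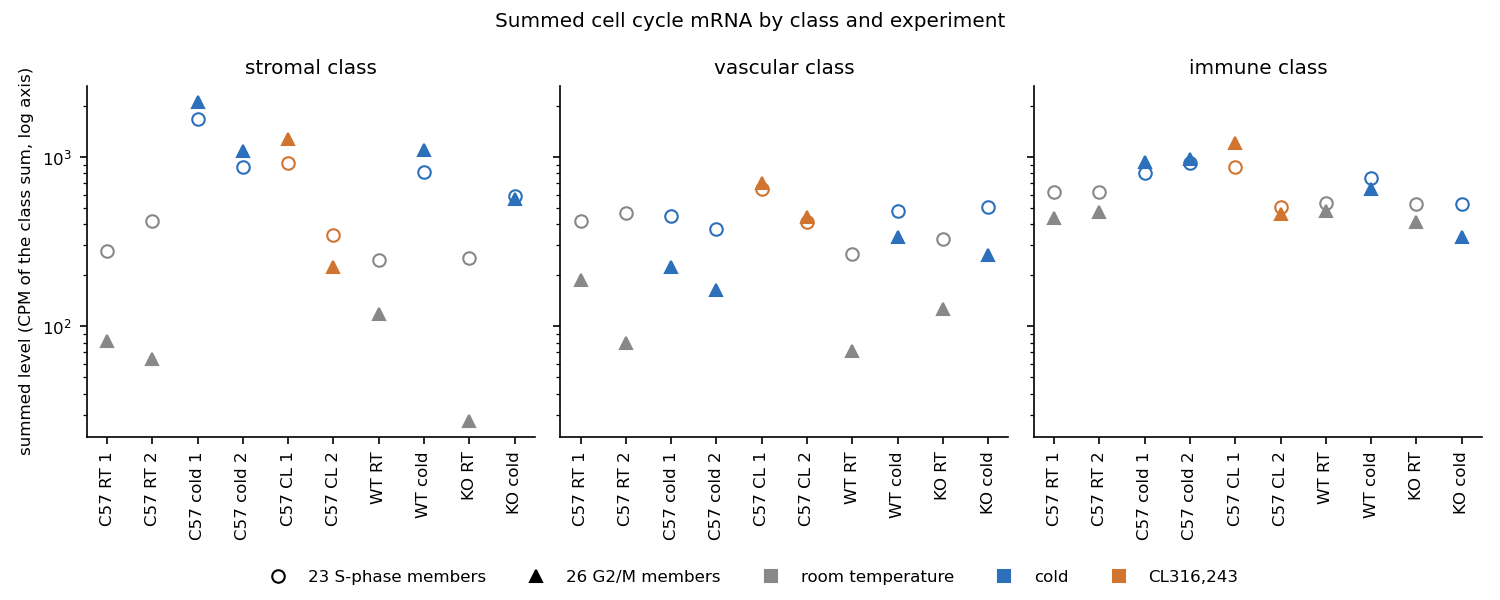
Summed level of the 23 S-phase genes (circles) and the 26 G2/M genes (triangles) in CPM of the class sum, on a log axis, for each experiment in the stromal, vascular and immune classes. Colours give the treatment, and each point is 1 experiment. In the stromal class the G2/M sum runs from 27.6 CPM in KO at RT to 2116 CPM in cold replicate 1.

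Of the 23 S-phase genes, 21 rose in stromal cells of cold-exposed mice over both lines, where 18% of all genes were higher. In C57 mice alone, where kit and temperature are not mixed, none passed. Tk1, the thymidine kinase of the salvage pathway, stood at 2.63 and 2.51 CPM at RT and at 158 and 71.9 CPM in the cold in C57 mice, and went from 0.771 to 57.6 CPM in WT and from 0.348 to 29.0 CPM in KO. Pclaf, a PCNA-binding factor, stood at 4.92 and 4.24 CPM at RT and at 222 and 117 CPM in the cold. Rrm2, the small subunit of ribonucleotide reductase, stood at 2.28 and 5.98 CPM against 149 and 50.5 CPM. For all 3 genes every cold pool of either line lay above every RT pool, though Tk1 in KO at RT lay near the floor. Over both lines (4 cold against 4 RT pools) the log2 difference was 5.77 ± 0.66 (SE) for Tk1 (edgeR quasi-likelihood test, adjusted p = 0.0018), 5.10 ± 0.52 for Pclaf (adjusted p = 0.0013) and 4.38 ± 0.63 for Rrm2 (adjusted p = 0.0031).

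The helicase subunit Mcm5 was at 2.77 and 3.66 CPM at RT and at 52.8 and 27.5 CPM in the cold, with a log2 difference of 3.30 ± 0.43 over both lines. Its partners Mcm2, Mcm3, Mcm6 and Mcm7 had differences of 2.37, 1.66, 1.52 and 1.29, all past the threshold, whereas Mcm4 (12.5 and 17.0 against 38.2 and 21.8 CPM in C57 mice) had 0.61 ± 0.32 and an adjusted p of 0.16. Cdt1 and Cdc6, which load the helicase, had 2.43 and 0.95, and Gins2 and Cdc45, which join it at the fork, had 2.52 and 2.00, and all 4 passed. Pcna, the sliding clamp, was at 21.9 and 34.1 CPM at RT and at 45.6 and 33.5 CPM in the cold, so the C57 groups overlapped, with a difference of 0.94 ± 0.18 over both lines (adjusted p = 0.0058). The cyclins of the G1/S step, Ccne1 and Ccne2, rose by 4.07 ± 0.62 and 3.31 ± 0.55. Slbp, which binds histone mRNA, did not pass (68.5 and 89.0 against 99.7 and 78.1 CPM, adjusted p = 0.12), and E2f1 had a difference of 0.53 ± 0.14 (adjusted p = 0.018).

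The 26 G2/M genes of stromal cells all rose over both lines, where 18% of all genes were higher, and none passed in C57 mice alone. Birc5 (survivin), a subunit of the chromosomal passenger complex, stood at 4.44 and 2.64 CPM at RT and at 246 and 115 CPM in the cold in C57 mice, and went from 4.77 to 117 CPM in WT and from 1.21 to 52.0 CPM in KO. Ccnb1, the mitotic cyclin B1, stood at 1.53 and 1.35 CPM against 65.3 and 33.1 CPM, and Plk1, a mitotic kinase, at 0.904 and 0.386 CPM against 40.9 and 19.9 CPM. No RT pool reached a cold pool in any of the 26 genes, in either line. The log2 differences over both lines were 5.29 ± 0.63 for Birc5 (edgeR, adjusted p = 0.0020) and 4.99 ± 0.63 for Ccnb1 (adjusted p = 0.0020). Plk1 passed too (adjusted p = 0.0031). It lay near the floor in the C57 RT pools and may have passed the filter on low counts through the treated pools, so no fold is given.

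Mki67 and Top2a are widely used as proliferation markers. Mki67 was at 5.49 and 2.69 CPM at RT and at 127 and 45.2 CPM in the cold, with a difference of 3.65 ± 0.70 (adjusted p = 0.0066), and Top2a, whose promoter is shown above, was at 7.91 and 3.08 against 198 and 81.7 CPM, with 4.20 ± 0.63 (adjusted p = 0.0032). In the KO pools Mki67 was at 1.04 CPM at RT and 22.9 CPM in the cold. The smallest G2/M difference was that of Nusap1, a spindle protein, at 1.99 ± 0.43 (adjusted p = 0.0094).

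The number of calls differed between fits. In C57 mice alone (2 against 2), none of the 54 genes passed in the stromal class (edgeR, 0.281% of all 14256 genes tested did), although 48 had an unadjusted p below 0.05 (29.3% of all genes did) and the adjusted p-values of these 48 lay between 0.057 and 0.121. The median log2 difference was 2.32 for the S-phase and 4.40 for the G2/M genes, against -0.03 over all genes tested. With the replicate experiment as a block, 46 passed (19 S-phase and all 26 G2/M genes higher, Cdkn1b lower), where 18.3% of all genes did, and DESeq2 called 44, where 14.4% did. With no filter on low counts 6 passed, where 6.63% did. Cold pools lay above both RT pools for 19 of 23 S-phase and 26 of 26 G2/M genes, against 19.2% of all genes, and over both lines for 17 and 26, against 10.6%. Over both lines 50 of the 54 passed, 21 S-phase and 26 G2/M genes higher, where 34.0% of all genes passed in either direction and 18% were higher. There the medians were 2.00 and 4.15, against 0.00 over all genes tested, and leaving out any single pool left 46 to 49 calls.

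Of the regulators in stromal cells, Ccnd2 rose and Ccnd1 and Cdkn1b fell over both lines. Ccnd2 was at 188 and 214 CPM at RT and at 367 and 339 CPM in the cold in C57 mice, and went from 101 to 289 CPM in WT and from 148 to 323 CPM in KO, so every cold pool was above every RT pool (log2 difference 1.13 ± 0.20, adjusted p = 0.0046). Ccnd1 was at 15.7 and 17.1 against 10.4 and 11.8 CPM, with every cold pool below every RT pool (-0.62 ± 0.20, adjusted p = 0.042), a call kept in only 1 of 8 fits that each left out a pool. Cdkn1b was at 38.9 and 58.6 against 30.2 and 27.2 CPM in C57 mice and fell from 119 to 25.2 CPM in WT and from 116 to 27.3 CPM in KO. Its RT level was higher in the Adrb1 line, where kit and temperature cannot be told apart, than in C57 mice, and its difference over both lines (-1.38 ± 0.30, adjusted p = 0.0088) was larger than in C57 mice alone (-0.64 ± 0.16). Ccnd3 (93.5 and 101 against 110 and 81.8 CPM) and Cdkn1a (186 and 190 against 137 and 130 CPM in C57 mice, but 115 to 167 CPM in WT) did not pass.

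Further genes of the same pathways, taken from fixed lists of the cell cycle that were chosen with earlier results of these data known, were read in the same fit over both lines. Of 42 other replication genes 31 were higher in the cold, of 42 other mitosis genes 38 were higher, and of 28 other regulators 9 were higher and 3 lower, with median log2 differences of 1.16, 3.31 and 0.35, beside the 34.0% of all genes that passed and the 18% that were higher. The condensin subunit Ncapg went from 0.487 and 0.579 to 25.4 and 12.2 CPM in C57 mice and the exonuclease Exo1 from 0.278 and 0.386 to 11.6 and 4.48 CPM. Both lay near the floor in these RT pools and may have passed the filter on low counts through the treated pools, so no fold is given. The repressor E2f8 had a difference of 4.18 ± 0.86 (adjusted p = 0.0078) and Cdk4, the partner of the D-type cyclins, 1.19 ± 0.20 (adjusted p = 0.0044). The 3 lower genes were Mycn, the pocket protein Rbl2 and the kinase inhibitor Cdkn1c (p57), which was at 137 and 186 CPM at RT and at 61.0 and 87.9 CPM in the cold (-0.80 ± 0.19, adjusted p = 0.012).

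Adipocyte mRNA moved with these genes in the stromal class. The 8 adipocyte markers together were at 11.1 and 419 CPM at RT, 7272 and 2549 CPM in the cold and 5564 and 968 CPM with CL in C57 mice, and went from 7.49 to 566 CPM in WT and from 13.7 to 133 CPM in KO. With the adipocyte-like clusters left out, 47 of the 54 genes passed over both lines, where 30.8% of all genes did, with medians of 1.62 for the S-phase and 3.73 for the G2/M genes. In C57 mice 1 then passed, where 3.4% of all genes did, with medians of 1.42 and 3.83.

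In the vascular class no member passed the edgeR test for cold, in C57 mice or over both lines. The S-phase sum was at 417 and 468 CPM at RT and at 445 and 374 CPM in the cold in C57 mice, and the G2/M sum at 188 and 79.9 against 225 and 163 CPM, so the groups overlapped in both sums. In the Adrb1 line the G2/M sum was at 71.7 CPM at RT and 338 CPM in the cold in WT, and at 126 and 262 CPM in KO. In C57 mice 51 of the 54 genes passed the filter on low counts (Ccne1, Ccne2 and Ttk did not), 4 had an unadjusted p below 0.05 (6.15% of all genes did) and none passed with edgeR (0.0% of all genes) or with DESeq2 (0.266%). Cold pools lay above both RT pools for 5 of 21 S-phase and 8 of 25 G2/M genes, against 12.7% of all genes, and below both for 5 S-phase genes and 1 G2/M gene, against 17.3%. Over both lines 49 were tested, 19 had an unadjusted p below 0.05 (19.9% of all genes did), none passed where 0.488% of all genes did, and DESeq2 called 6, where 2.77% passed. With no filter on low counts edgeR called 1 member in C57 mice, where 0.419% of all genes passed, and 17 over both lines, where 5.75% did. Every cold pool lay above every RT pool for 3 of 21 S-phase and 6 of 23 G2/M genes, against 4.97% of all genes.

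Mki67 and Top2a overlapped between RT and cold in the vascular class. Mki67 was at 12.7 and 2.37 CPM at RT and at 10.8 and 6.54 CPM in the cold in C57 mice, Top2a at 19.5 and 5.37 against 13.7 and 8.11 CPM, and Pcna at 41.6 and 41.0 against 26.3 and 23.8 CPM. Cold pools lay between the RT pools for Mki67 and Top2a and below them for Pcna. Ccnd1 had both C57 cold pools above both RT pools, at 49.6 and 68.5 against 136 and 167 CPM, and went from 81.7 to 124 CPM in WT and from 71.7 to 137 CPM in KO. Its log2 difference was 1.44 in C57 mice and 1.04 ± 0.23 over both lines, with an adjusted p of 0.084. Ccnd2 (315 to 508 CPM in all experiments), Ccnd3 (92.1 to 196 CPM), Cdkn1a (187 to 619 CPM) and Cdkn1b (30.0 to 156 CPM) did not pass.

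Immune cells already held cell cycle mRNA at RT and held more of it in the cold in C57 mice. The S-phase sum was at 618 and 621 CPM at RT and at 805 and 921 CPM in the cold, and the G2/M sum at 438 and 472 against 938 and 977 CPM, a 2.10-fold ratio, with no overlap of the groups. In C57 mice 6 of the 54 genes passed, all higher, where 13.8% of all genes passed and 7.72% were higher: the thymidylate synthase gene Tyms, the mitotic genes Ccnb1, Kif22, Aurka and Aurkb, and Ccnd1. Ccnb1 was at 3.71 and 6.94 CPM at RT and at 22.1 and 24.8 CPM in the cold (log2 difference 2.11 ± 0.52, adjusted p = 0.047), the kinesin Kif22 at 4.22 and 5.54 against 13.0 and 16.2 CPM (1.55 ± 0.37, adjusted p = 0.044), and Tyms at 12.3 and 15.8 against 31.9 and 37.2 CPM (1.27 ± 0.33, adjusted p = 0.0496). None of the 6 calls was kept when any of the 4 RT or cold pools was left out. With the replicate experiment as a block 14 passed, where 22.2% of all genes did, DESeq2 called 26, where 25% did, and with no filter on low counts edgeR called 40, where 21% did. An unadjusted p below 0.05 was found for 34 members and 38.9% of all genes, and both cold pools lay above both RT pools for 18 of 23 S-phase and all 26 G2/M genes, against 37.3%.

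Ccnd1 gave the smallest adjusted p of the members in immune cells. It was at 72.9 and 71.0 CPM at RT and at 193 and 192 CPM in the cold in C57 mice (log2 difference 1.39 ± 0.18, adjusted p = 0.019) and went from 40.6 to 128 CPM in WT and from 50.1 to 143 CPM in KO (1.74 ± 0.19 over both lines, adjusted p = 0.00087). All cold pools were above all RT pools. Cdkn1a was at 330 and 223 against 565 and 479 CPM in C57 mice and rose over both lines by 1.12 ± 0.21 (adjusted p = 0.0034), while Ccnd2 (135 and 157 against 126 and 142 CPM) and Ccnd3 (88.8 and 103 against 113 and 104 CPM) did not pass. Cdkn1b was at 79.9 and 64.0 against 50.1 and 32.6 CPM in C57 mice, but at 281 and 300 CPM in the RT pools of the Adrb1 line against 34.3 and 46.2 CPM in its cold pools, so its difference over both lines (-1.59 ± 0.34, adjusted p = 0.0055) rests in part on pools where kit and temperature cannot be told apart. The proliferation markers did not pass in immune cells: Mki67 was at 38.5 and 26.05 against 77.6 and 53.3 CPM in C57 mice but went from 74.1 to 36.9 CPM in WT and from 60.3 to 19.2 CPM in KO, with a difference over both lines of 0.10 ± 0.44. Top2a (0.68 ± 0.26, adjusted p = 0.057) and Pcna (0.04 ± 0.25, adjusted p = 0.91) did not pass either. The makeup of the immune class also differed between RT and cold in C57 mice. Of the immune cells used for the shares further on, B-like cells were 27.9% and 28.9% at RT and 3.78% and 8.71% in the cold. T-like cells went from 11.8% and 15.1% to 3.14% and 7.60%, and dendritic-like cells from 6.58% and 4.36% to 20.6% and 19.3%. The part of this makeup in the differences of the immune class sums, those of Ccnd1 and Cdkn1b among them, was not tested.

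Over both lines 31 of the 54 genes passed in immune cells, 14 S-phase and 14 G2/M genes and the regulators Ccnd1 and Cdkn1a higher and Cdkn1b lower, where 48.8% of all genes passed, a share near that of the members (57.4%), and 25.1% were higher. Only 2 of the S-phase genes, Ccne1 and Mcm5, and none of the G2/M genes had every cold pool above every RT pool, against 15.7% of all genes. Mcm5 was at 20.4 and 23.6 against 34.2 and 39.2 CPM in C57 mice, went from 16.0 to 28.6 CPM in WT and from 16.9 to 25.6 CPM in KO, and had a difference of 0.97 ± 0.18 (adjusted p = 0.0034). Of the other lists, 18 of 42 replication genes were higher, 21 of 42 mitosis genes were higher and Hjurp and Cdc25b lower, and 8 of 28 regulators were higher and 3 lower, among them Rbl2 at -1.54 ± 0.22. These counts stand beside the same 48.8% and 25.1% of all genes.

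**Figure D2:**
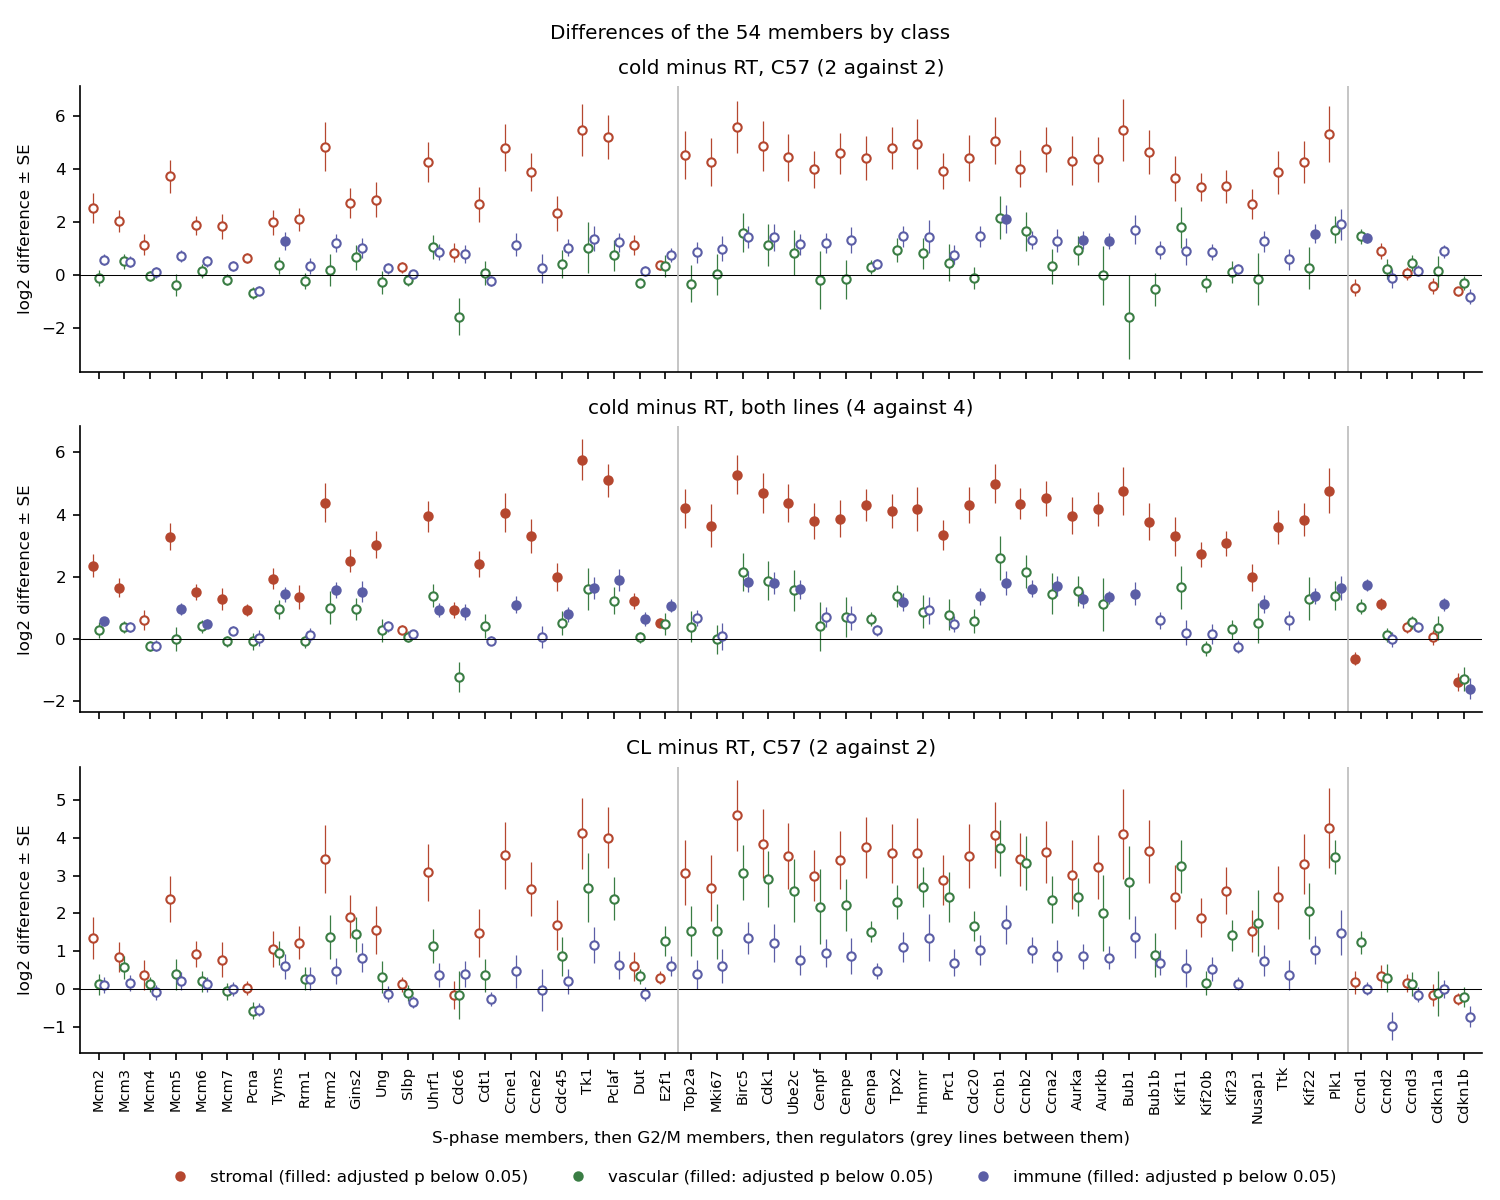
Log2 difference of each of the 54 genes, with SE bars, in the stromal (red), vascular (green) and immune (blue) class, for cold minus RT in C57 mice, cold minus RT over both lines and CL minus RT in C57 mice. Filled points passed at an adjusted p below 0.05, and grey lines part S-phase genes, G2/M genes and regulators. The 26 G2/M genes of the stromal class lie between 1.99 and 5.29 over both lines, all filled.

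With CL no member passed in any class in the planned fit, and no gene of the whole table did (0.0% in each class). In stromal cells 39 of 54 members had an unadjusted p below 0.05, where 12.1% of all genes did, with median log2 differences of 1.35 for S-phase and 3.42 for G2/M genes against 0.01 over all genes. Birc5 was at 154 CPM in CL replicate 1 and 22.1 CPM in replicate 2 against 4.44 and 2.64 CPM at RT (4.59 ± 0.94, adjusted p = 0.24), and Mki67 at 45.4 and 8.77 CPM against 5.49 and 2.69 CPM (2.67 ± 0.87, adjusted p = 0.34). Both CL pools lay above both RT pools for 25 of 26 G2/M genes but for 8 of 23 S-phase genes, against 7.04% of all genes. With the replicate block 22 members passed in the stromal class, all higher, where 0.779% of all genes did, and DESeq2 called 31, where 3.13% passed. Without CL replicate 2, 38 passed, where 10.6% did.

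The G2/M sum of the vascular class was higher with CL than at RT, though no gene passed the test. It was at 707 and 443 CPM with CL against 188 and 79.9 CPM at RT, a 4.29-fold ratio, and both CL pools lay above both RT pools for 23 of 25 G2/M genes tested and for 6 of 21 S-phase genes, against 5.47% of all genes. Top2a was at 47.7 and 26.6 CPM with CL, against 19.5 and 5.37 CPM in the RT and 13.7 and 8.11 CPM in the cold pools, and Ccnb1 at 14.2 and 11.05 CPM, against 1.49 and 0 CPM in the RT and 5.26 and 3.83 CPM in the cold pools. Both CL pools lay above all RT and cold pools of C57 mice for these 2 genes. Of the 51 members tested, 26 had an unadjusted p below 0.05 (5.2% of all genes did) and none passed, DESeq2 called 4, where 0.125% passed, and without CL replicate 2 edgeR called 15, where 4.83% of all genes passed. With no filter on low counts 9 passed, where 0.313% did. The makeup of the class differed between the CL pools: mural markers summed to 3677 and 18099 CPM, endothelial markers to 9266 and 3949 CPM, stromal markers to 711 and 3360 CPM and adipocyte markers to 1060 and 206 CPM in CL replicates 1 and 2, against 178 and 273 CPM of adipocyte, 1304 and 850 CPM of stromal, 8700 and 16111 CPM of mural and 6843 and 7569 CPM of endothelial markers in RT pools, and their part in the result was not tested. An unnamed cluster of 4109 cells with all 10 endothelial and 4 of the 8 adipocyte markers raised, 80.5% of them from a single library, was left out of the class. Adding it took CL replicate 1 from 3094 to 6510 vascular cells and left no member past the test, with a G2/M median log2 difference of 2.04 in place of 2.30. In immune cells the sums of CL replicate 1 (875 CPM for S phase and 1209 CPM for G2/M) lay above both RT pools, whereas those of replicate 2 (509 and 458 CPM) lay below or between them. There 16 members had an unadjusted p below 0.05 (19% of all genes did), both CL pools lay above both RT pools for none of the S-phase and 9 of the G2/M genes (19.4% of all genes), DESeq2 called 2, where 4.78% passed, and without CL replicate 2 edgeR called 37, where 27.6% of all genes passed. With no filter on low counts 25 passed, where 8.88% did.

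The difference in the cold response between classes was tested in C57 mice with the sums of all 3 classes in 1 model. The response of the stromal class exceeded that of the vascular class for 28 members and fell below it for Ccnd1, where 2.45% of all genes passed. It exceeded that of the immune class for 37 members and fell below it for Ccnd1, where 7.07% passed. Against the vascular class the largest differences that passed were those of Bub1b (5.16 ± 0.77, adjusted p = 0.013), a spindle checkpoint kinase, and Top2a (4.78 ± 0.71, adjusted p = 0.016) among G2/M genes, and of Rrm2 (4.58 ± 0.81, adjusted p = 0.027) and Pclaf (4.43 ± 0.63, adjusted p = 0.013) among S-phase genes. Against the immune class they were those of Birc5 (4.21 ± 0.76, adjusted p = 0.014) and Tk1 (4.09 ± 0.82, adjusted p = 0.021). For Ccnd1 the difference was -1.94 ± 0.41 (adjusted p = 0.039) and -1.87 ± 0.40 (adjusted p = 0.022), with the levels of each class given above. These counts rest on all 4 pools. Without cold replicate 1, cold replicate 2, RT replicate 1 or RT replicate 2, the count against the vascular class was 0, 3, 0 and 1 (0.0%, 0.0731%, 0.0122% and 0.0552% of all genes), and that against the immune class 0, 15, 1 and 0 (0.067%, 0.951%, 0.0973% and 0.0246%). For the CL response no member passed in either comparison, with 12 and 41 members at an unadjusted p below 0.05, where 5.28% and 12.9% of all genes were.

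To ask how many cells held these mRNAs, every cell was thinned to 1000 UMIs, cells below that were left out, and a cell with 3 or more UMIs of the S-phase list or of the G2/M list was counted as past the gate. In the stromal class of C57 mice 0.689% and 1.26% of cells were past the gate at RT (95% exact binomial intervals 0.437 to 1.03% and 0.890 to 1.72%) and 22.9% and 11% in the cold (21.9 to 24.0% and 10.1 to 11.9%). With CL the shares were 13.5% and 2.00%. In WT the share was 0.678% at RT and 10.6% in the cold, and in KO 0.338% and 5.79%. Every cold pool was above every RT pool, by more than the counting intervals, which cover counting error only. No test was made, since the gate is itself a score of the members.

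Of vascular cells, 1.41% and 2.08% were past the gate in RT pools, 1.32% and 1.87% in cold pools and 5.60% and 2.28% in CL pools, so the cold pools overlapped the RT pools and CL replicate 1 stood above them. Thinning left out an unequal part of these cells. It left out 153 of 1783 and 804 of 1813 in RT pools and 575 of 1939 and 157 of 1283 in cold pools. In CL pools it left out 1273 of 3094 and 121 of 736. In the immune class the RT pools had 4.23% and 5.40%, the cold pools 11.4% and 11.9% and the CL pools 13.4% and 3.91%, and the share went from 3.68% to 7.20% in WT and from 3.23% to 4.29% in KO. As a rough reference for free mRNA, neutrophil-like cells had shares of 0 to 4.19% and monocyte-like cells 0 to 1.12% at the same depth. The neutrophil-like group was mixed: a cluster of 1451 cells also raised 5 macrophage and 6 monocyte markers, and a cluster of 185 cells raised 5 B cell markers. Whether its share holds only free mRNA was not tested. The stromal and vascular shares at RT lay within the neutrophil-like range. The vascular shares in the cold (1.32 to 2.86% over both lines), the CL replicate 2 shares of all 3 classes and the immune shares of WT and KO at RT lay within it too, though above the monocyte-like range. The top of the neutrophil-like range came from 8 gated cells of CL replicate 1. Within the immune class of CL replicate 2, neutrophil-like cells were 11.7% of thinned but 2.66% of gated cells. The values were 17.6% and 6.56% in WT at RT and 12.7% and 1.39% in KO at RT. So in each of those pools the immune share lay above the neutrophil-like one. All neutrophil-like cells came from Lin+ libraries, so the range does not cover free mRNA of Lin- libraries, which held most stromal and vascular cells. Groups within a class could lie above the neutrophil-like range: in CL replicate 2 the share was 27.8% of adipocyte-like, 14.3% of dendritic-like and 13.4% of NK-like cells. Median depth before thinning was 1500 to 4814 UMIs in the stromal class and 1014 to 3170 UMIs in neutrophil-like cells. Without thinning the cold minus RT difference in percentage points went from 16.0 to 28.6 in the stromal class and from 6.81 to 16.2 in the immune class. In the vascular class it turned from -0.154 to 0.909.

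**Figure D3:**
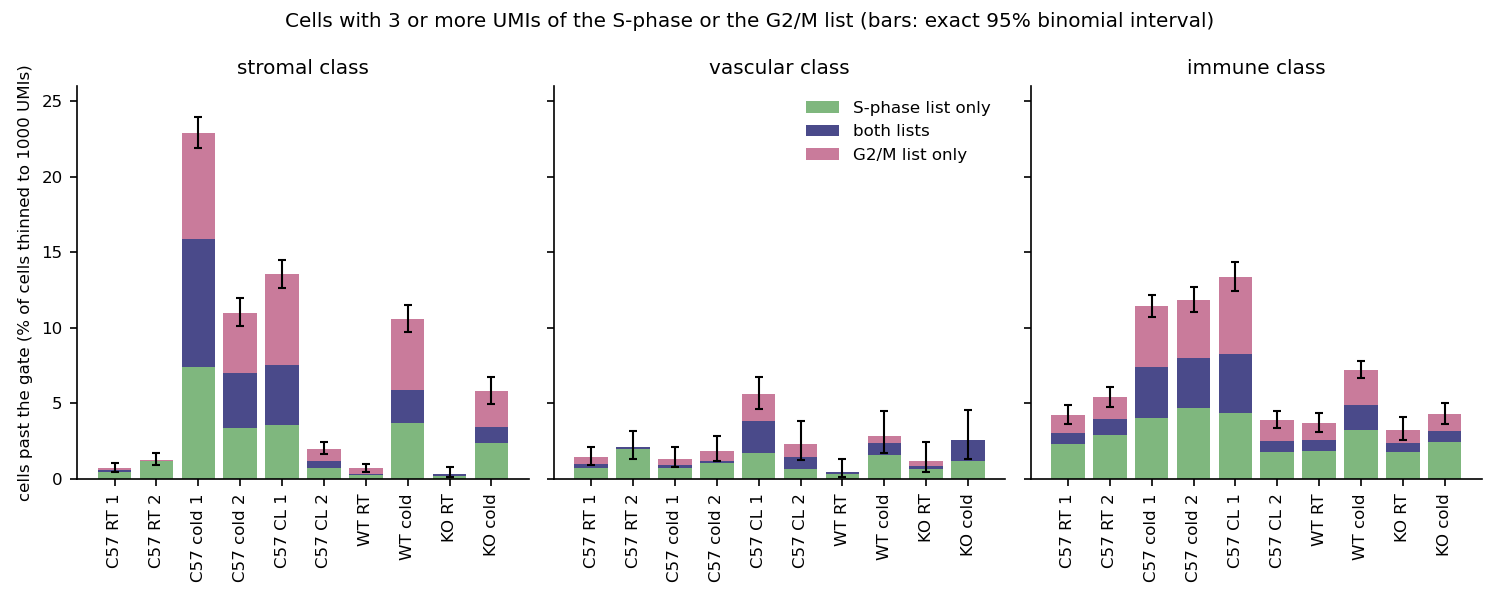
Share of cells past the gate, in percent of cells thinned to 1000 UMIs, per experiment and class. Colours give cells past it by the S-phase list only, by both lists or by the G2/M list only, and bars give the exact 95% binomial interval of the total. In the stromal class the cold pools reach 22.9%, 11%, 10.6% and 5.79%, against 0.338 to 1.26% at RT.

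The phase makeup of the gated stromal cells differed between pools. In cold replicate 1, 32.2% of the 1495 gated cells passed by the S-phase list only, 30.7% by the G2/M list only and 37.1% by both. In cold replicate 2 the shares of the 516 gated cells were 30.8%, 36.6% and 32.6%. The 38 gated cells of RT replicate 2 were mostly S-phase only (35 cells, 92.1%), and so were 14 of the 23 in RT replicate 1. In WT at RT 14 of 24 gated cells (58.3%) were G2/M only and 9 S-phase only, and KO at RT had 5 gated cells. Gated cells of WT and KO in the cold passed by both lists in 21.2% and 17.9%. All cold and CL pools had 17.9% to 37.1% of gated stromal cells positive for both lists.

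Among cell groups, called by the markers they expressed, the adipocyte-like cells had the highest stromal shares. They were past the gate in 59.5% and 45.3% in the cold and 27.8% and 27.8% with CL in C57 mice, in 40.9% in cold WT and in 32.3% of 31 cells in cold KO. At RT the group had 1 and 12 thinned cells in C57 mice and no share is read there. Adipocyte-like shares mix a cluster of 2771 cells led by Car3, Adipoq and Nnat with one of 399 cells led by Cfd, Scd1 and Retn. The former held 2746 CPM of G2/M mRNA and the latter 79.8 CPM, with 76.4% of the latter's cells from a single library. The shares were not read by cluster. ASC1-like cells, the adipose stromal cells that carry the largest part of the class in the cold, had 0.752% and 1.44% past the gate in RT pools, 15.0% and 9.81% in cold pools and 6.04% and 1.15% in CL pools, and went from 0.589% to 15.7% in WT and from 0.250% to 10.8% in KO. Different clusters held most of the group at RT and in the cold. A cluster led by Smoc2, Cxcl14 and Crispld2 held 75.1% and 70.3% of ASC1-like cells in the RT pools of C57 mice and 8.55% and 12.1% in the cold pools, where 1.90% and 0.867% of its cells were past the gate. A cluster led by Timp1, Cxcl9 and Tnc held 2.18% and 0.844% in the RT pools (38 and 13 cells) and 70.5% and 71.7% in the cold pools, where 19.0% and 12.4% were past the gate. In the remaining ASC1-like cluster, led by Fst, the shares past the gate were 1.57% and 1.47% in RT pools and 5.98% and 4.86% in cold pools. ASC2-like cells had 15.5% in CL replicate 1 and 2.41% in CL replicate 2, on either side of their cold pools (4.33% and 3.77%), with 0.617% and 1.33% in RT pools. These values mix clusters. An ASC2-like cluster of 2102 cells, led by Cthrc1, H19 and Lrrc15, held 1341 CPM of G2/M mRNA, against 148 to 294 CPM in the other 3 ASC2-like clusters, and 1603 of its cells came from CL replicate 1. Within it 20% of the thinned cells of CL replicate 1 and 11.2% of those of CL replicate 2 were past the gate. Without it the ASC2-like shares were 6.92% and 1.26% in CL pools, 3.92% and 3.35% in cold pools and 0.617% and 1.34% in RT pools, and 2.48% in cold WT in place of 4.55%. ASC3-like cells stayed at or below 2.95% in every pool. Groups were defined without the cell cycle genes, which were left out of the clustering.

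Among immune cells, dendritic-like cells were past the gate in 11.2% and 12.9% at RT and 21.8% and 24.2% in the cold, and NK-like cells in 10.3% and 16.8% against 25.1% and 21.4%, while macrophage-like cells went from 5.44% and 4.37% to 3.01% and 2.84% and had 12.3% and 5.82% in CL pools. The macrophage-like values mix clusters whose G2/M mRNA ran from 132 CPM (led by Spp1) to 866 CPM (led by Ccl8, Folr2 and Cbr2), with 462 CPM in one led by Gpnmb and Trem2. The dendritic-like values mix clusters too. A cluster led by Xcr1 held 1780 CPM of G2/M mRNA, one led by Ccl22 368 CPM and one led by Siglech 121 CPM. The shares of these macrophage-like and dendritic-like clusters were not read, so a change within a cluster is not told from a change in makeup. Immune cells of clusters with no finer name were past the gate in 6.06% and 8.09% in RT pools, 18.8% and 18.1% in cold pools and 18.8% and 7.47% in CL pools, and went from 7.23% to 12.4% in WT and from 4.39% to 9.11% in KO. They made up 34.1% and 32.2% of the gated immune cells of the C57 cold pools. In those pools 88.9% and 84.6% of the group belonged to a cluster led by Cd209a, a lectin gene of the dendritic marker list, Clec4b1 and Tnip3, which raised 2 markers of that list and so was not called dendritic-like. In that cluster 8.82% and 7.14% were past the gate in RT pools and 19.2% and 20.3% in cold pools. In KO the dendritic-like share in the cold was 10.6%, against 25.1% in WT, from a single pool of each. The immune cells captured held more dendritic-like cells in the cold, with 260 and 205 cells at RT and 1575 and 1239 in the cold. Endothelial-like cells had 1.52% and 1.87% in RT pools, 0.890% and 1.50% in cold pools and 4.83% and 2.83% in CL pools, and mural-like cells 1.13% and 2.37%, 2.15% and 2.39%, and 14.6% (of 144 thinned cells) and 1.81%.

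**Figure D4:**
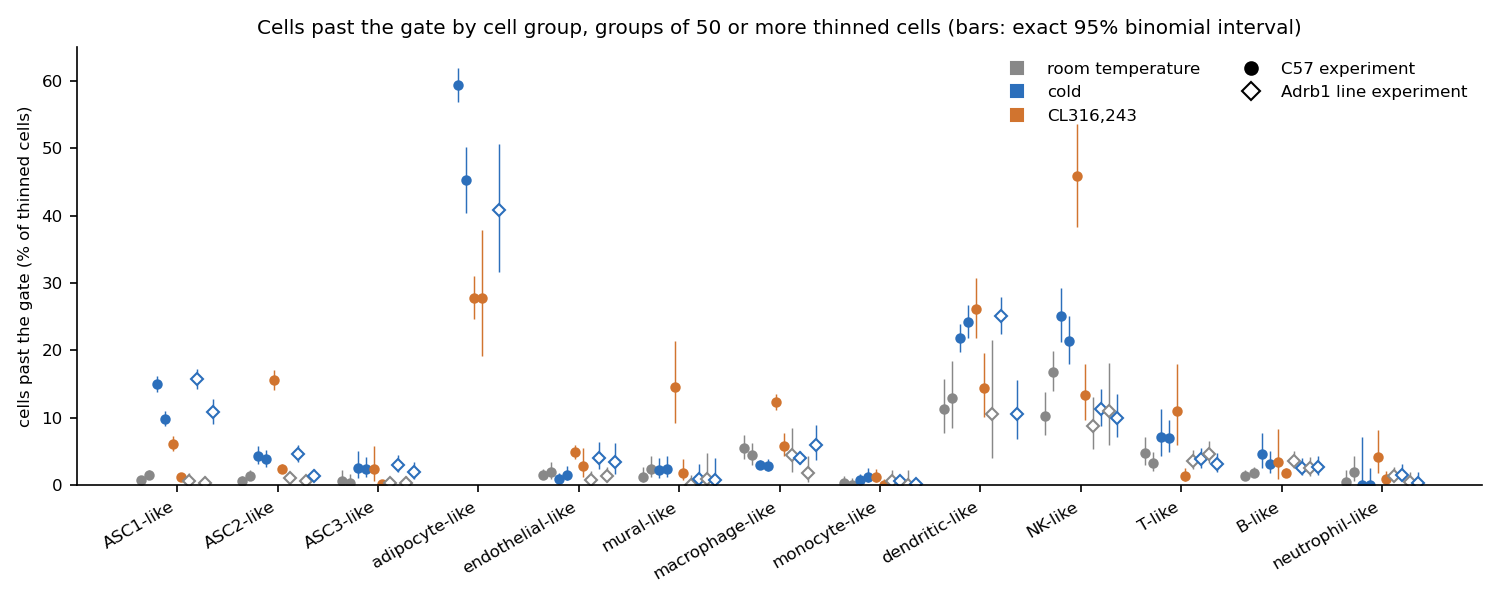
Share of cells past the gate for each cell group with 50 or more thinned cells in an experiment, in percent of thinned cells, with exact 95% binomial intervals. Grey, blue and orange stand for RT, cold and CL, filled circles for C57 and open diamonds for the Adrb1 line. Adipocyte-like cells reach 59.5% in cold replicate 1, and ASC3-like and monocyte-like cells stay below 3% in every experiment.

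Regulators were then compared between cells past the gate and the other cells of the same class, in the 4 cold and 2 CL pools, with the experiment as a block. The S-phase and G2/M genes chose the cells, so only the regulators and the genes of the other lists were tested. A regulator expressed together with the genes that chose the cells would be higher in gated cells by that choice alone. A higher level of such a regulator is a description only, and which regulators are of this kind was not tested. In stromal cells the gated cells held less of the kinase inhibitor Cdkn1c: 41.5 and 48.4 CPM against 110 and 117 CPM in the cold C57 pools, 95.4 and 97.1 against 253 and 212 CPM with CL, 51.9 against 147 CPM in cold WT and 37.0 against 134 CPM in cold KO. It was lower in all 6 pools (log2 difference -1.46 ± 0.14, adjusted p = 1.9e-11), and 38.3% of all genes passed in this contrast. The antiproliferative genes Btg1 (-0.83 ± 0.16) and Btg2 (-0.84 ± 0.14) were lower in 6 of 6 pools and Gas1, a growth arrest gene, in 5 of 6 (-0.80 ± 0.14). The INK4 inhibitor genes Cdkn2d and Cdkn2c were higher: Cdkn2d was at 154 to 184 CPM in gated and 35.0 to 47.8 CPM in other cells (2.08 ± 0.13, adjusted p = 3.3e-17), and Cdkn2c at 147 to 216 against 17.4 to 78.0 CPM (2.15 ± 0.26). The other INK4 genes, Cdkn2a and Cdkn2b, stayed at or below 9.71 CPM and were not among the genes tested. Cdk2 (1.66 ± 0.20) and Cdk4 (0.88 ± 0.14) were higher in 6 of 6 pools.

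Of the 5 regulators among the 54 genes, only Cdkn1b passed in stromal cells, where 38.3% of all genes did. Its log2 difference was -0.48 ± 0.19 (edgeR, adjusted p = 0.039), with 19.4 to 38.8 CPM in gated and 30.7 to 48.8 CPM in other cells. It was lower in 4 of 6 pools, and 2 of 6 fits that left out a pool kept the call. Ccnd2, which had risen in the class sums, was at 194 to 401 CPM in gated and 201 to 310 CPM in other cells and did not pass (0.20 ± 0.14, adjusted p = 0.28). Within ASC1-like clusters alone Cdkn1c (-0.98), Btg1 (-0.90), Btg2 (-0.72), Gas1 (-0.45), Cdkn2d (2.22) and Cdkn2c (2.39) passed with the same sign, and Cdkn1b did not (-0.39, adjusted p = 0.29). Genes of replication and mitosis are expressed together with those that chose the cells, so for these lists the counts are a description only. In gated cells 38 of 38 other replication genes and 40 of 41 mitosis genes were higher, beside the 38.3% of all genes that passed in either direction. Pttg1, the securin gene, was lower (-0.38).

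In immune cells Ccnd1 was higher in gated cells in 6 of 6 pools, at 246 and 265 against 182 and 150 CPM in the cold C57 pools (0.70 ± 0.11, adjusted p = 8.1e-06), where 34.0% of all genes passed. Within dendritic-like clusters alone the difference was -0.13 (adjusted p = 0.47). Ccnd3 passed (0.42 ± 0.11, adjusted p = 0.0029), in dendritic-like clusters too (0.66), and Ccnd2, Cdkn1a and Cdkn1b did not, though within dendritic-like clusters Ccnd2 (-1.45) and Cdkn1a (-0.73) were lower and passed. Btg1 was at 189 to 896 CPM in gated and 557 to 1610 CPM in other cells (-1.22 ± 0.11), and Gadd45a was lower in 6 of 6 pools (-1.21 ± 0.16). Cdkn2c was higher here too (2.88 ± 0.14), and so was the E2F repressor E2f8 (3.40 ± 0.28). Its relative E2f7 was at 6.49 to 12.2 CPM in gated cells and at 0 to 0.546 CPM in the others, so it passed the filter through the gated cells and no fold is given. The limit on regulators expressed together with the genes that chose the cells holds here too.

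**Figure D5:**
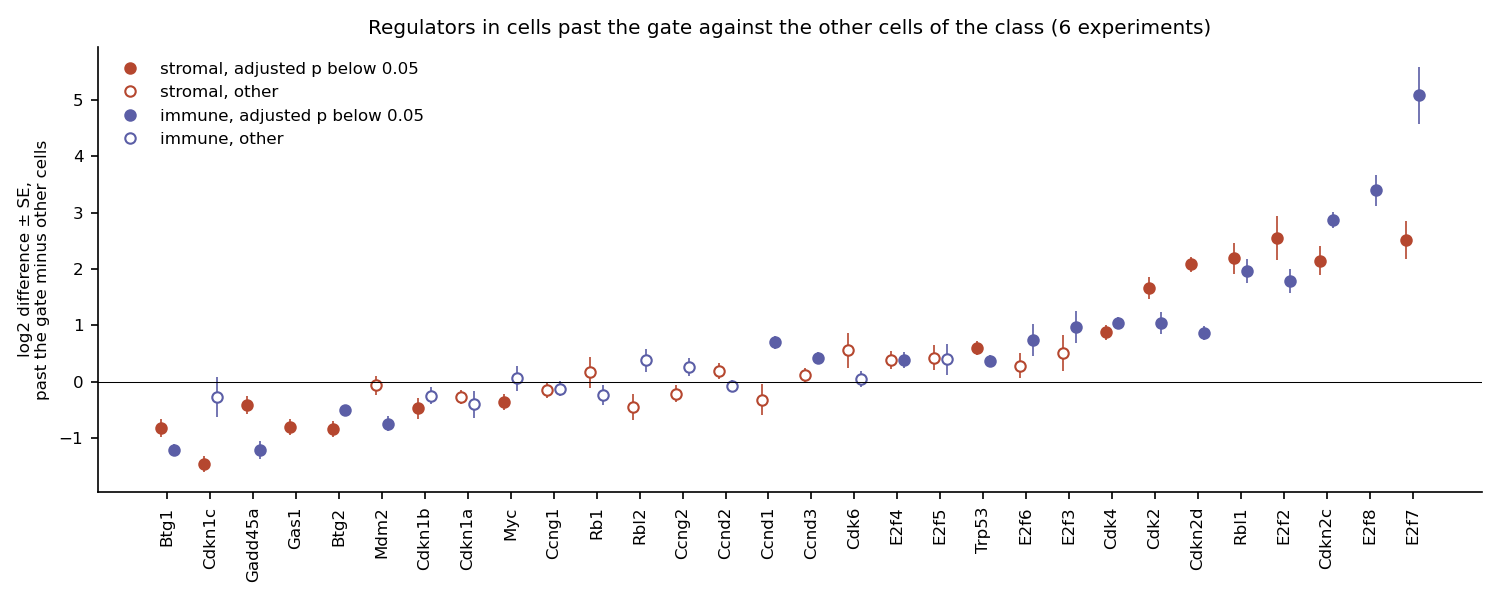
Log2 difference, with SE bars, of regulators of the cell cycle between cells past the gate and the other cells of the stromal (red) and immune (blue) class, in 6 experiments. Filled points passed at an adjusted p below 0.05. Cdkn1c in the stromal class lies at -1.46 and E2f8 in the immune class at 3.40, and the point of E2f7 in the immune class rests on other cells with almost no counts and is not a measured fold.

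WT and KO mice, with a single pool per group, were set side by side and not tested. In stromal cells the cold pools held 818 and 586 CPM of S-phase and 1100 and 564 CPM of G2/M mRNA in WT and KO, and the RT pools 246 and 254 CPM and 118 and 27.6 CPM. The ratio of cold to RT was 3.32 in WT and 2.30 in KO for the S-phase sum, but 9.28 in WT and 20.4 in KO for the G2/M sum, so the order of the genotypes turned with the list. Adipocyte markers stood at 566 CPM in the cold WT pool and 133 CPM in the cold KO pool, and their part in the difference was not tested. In the cold the stromal level in KO was below that in WT for each S-phase and each G2/M gene, and for 55.1% of all genes, read from a single pool of each genotype. In immune cells the level in KO was lower for 23 of 23 S-phase and 25 of 26 G2/M genes, and for 48.4% of all genes. In vascular cells 11 of 21 and 17 of 23 were lower, and 48.8% of all genes. In immune cells the cold G2/M sum was 649 CPM in WT and 335 CPM in KO, from 480 and 411 CPM at RT, so the KO pool was lower in the cold than at RT. In vascular cells it was 338 and 262 CPM.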

How the data were processed

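Single-cell libraries (10x Genomics) of Lin+ and Lin- cells were analysed from 10 experiments. Per the labels the authors aligned reads with Cell Ranger 3.0.1 to mm10, and per the study's methods they removed free mRNA with SoupX, so the deposited values are estimated counts (expected UMI counts after that correction), of which 97.2 to 99.6% of the values above 0 in a library are not whole. Sums were rounded to whole numbers before testing. SoupX lowers genes it takes for free mRNA and can move low levels.

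Cells with 10% or more mitochondrial UMIs or over 15000 UMIs were removed, as were Lin+ cells with over 4000 genes and Lin- cells with under 100. Cells were clustered in Scanpy 1.11.5 (2000 variable genes without the cell cycle lists and markers, 30 principal components, 30 neighbours, Leiden resolution 2) and clusters were named from at least 3 raised markers. Clusters with no name, or named erythroid-, Schwann- or epithelial-like, were left out of the classes. Doublets were treated by leaving out the top 6% of Scrublet scores as an alternative. Counts were summed per experiment and class and tested with edgeR 4.0.16 (TMM, filterByExpr, robust quasi-likelihood test, R 4.3.3), with Benjamini-Hochberg adjustment over all genes tested and a threshold of 0.05. DESeq2 1.42.0 was an alternative. The 6 C57 experiments shared a fit, and the fit over both lines held all 10 experiments with CL as its own term and a factor for C57, WT and KO. The SE given with edgeR differences was derived from the test, as the absolute log2 difference divided by the square root of its F statistic. Levels are CPM of the class sum.

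The study's methods join C57 libraries of the same replicate number, so numbers were taken as paired and a fit with the replicate as a block was made. Deviations of same-numbered samples correlated at 0.17, 0.20 and 0.26 between RT and cold, at -0.0035, 0.18 and 0.15 between RT and CL and at 0.54, 0.38 and 0.40 between cold and CL (stromal, vascular, immune). The members and lists were chosen with earlier results of these data known. Named genes were, per class and contrast, the 3 S-phase and 3 G2/M genes with the largest difference among those that passed with treated pools on the same side of all RT pools, together with Mki67, Top2a, Pcna and the 5 regulators, and 3 genes of each other list by the same criteria. Other members were named after their values were seen.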

Additional observations from a re-analysis of the deposited data

Results flagged for a closer look

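The cold response of C57 mice differed between classes, by a test of the difference itself, for 29 members between stromal and vascular cells and for 38 between stromal and immune cells, where 2.45% and 7.07% of all genes passed. Without cold replicate 1, cold replicate 2, RT replicate 1 or RT replicate 2 the counts were 0, 3, 0 and 1, and 0, 15, 1 and 0. Between stromal and immune cells the log2 difference of the responses was 4.21 for Birc5, 4.00 for Cenpa, 3.85 for Top2a, 4.09 for Tk1, 4.00 for Pclaf, 3.69 for Ccne1 and -1.87 for Ccnd1. Between stromal and vascular cells it was 5.16 for Bub1b, 4.78 for Top2a, 4.71 for Cenpe, 4.58 for Rrm2, 4.43 for Pclaf, 4.09 for Mcm5 and -1.94 for Ccnd1.

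Cells of clusters outside the 3 classes (those with no name and those called erythroid-, Schwann- or epithelial-like), which entered no main comparison, also held cells past the gate. Their share was 7.04% in cold replicate 1, 6.92% in CL replicate 1 and 5.87% in CL replicate 2, each above the range that counting error gives the RT pools of C57 mice (1.62% and 1.48%). It was 3.36% in cold replicate 2, and went from 0.604% to 3.99% in WT and from 1.08% to 1.78% in KO.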

How the results depend on the processing

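Of 265 recomputed counts and shares, 220 stayed close to the reported value, 40 moved and 5 turned sign. Of 1279 recomputed values of single genes, 1113 kept their direction and side of the threshold and 165 kept their direction but no longer passed, and 1 turned sign (Ccnd1, given below). With DESeq2 the members called were 44 (stromal, cold, 14.4% of all genes), 31 (stromal, CL, 3.13%) and 4 (vascular, CL, 0.125%). They were 6 in vascular cells in the cold over both lines (2.77%), and 26 and 2 in immune cells (cold and CL, 25% and 4.78%). For the CL response of stromal against immune cells the members called were 14 (1.24% of all genes). With no filter on low counts they were 6 (stromal, cold, 6.63% of all genes), 1 and 9 (vascular, cold and CL, 0.419% and 0.313%), 17 (vascular, cold over both lines, 5.75%), 40 and 25 (immune, cold and CL, 21% and 8.88%) and 6 for the CL response of stromal against immune cells (0.538%). With the replicate block they were 46 and 22 (stromal, cold and CL, 18.3% and 0.779% of all genes) and 14 (immune, cold, 22.2%). Among the other counts of cold or CL against RT in C57 mice the block moved none. The class comparisons held the experiment as a block already, and the fits over both lines were not run with it. Without the adipocyte clusters 1 member passed in stromal cells of C57 mice in the cold, where 3.4% of all genes did. Within dendritic-like clusters 40 regulators and other genes passed in gated immune cells, where 33.6% of all genes did, and Ccnd1 turned to -0.13. The cold minus RT share of immune cells was 5.92 percentage points with a gate of 2 UMIs, 5.35 with 5 and 16.2 without thinning, that of stromal cells 28.6 without thinning, and that of vascular cells turned to 0.0994 with a gate of 5 and 0.909 without thinning. The cause of these moves was not tested. Alternatives chosen after seeing the data left out the shared barcodes, the KO pools or the ASC2-like cluster with the most G2/M mRNA, added the unnamed cluster with endothelial and adipocyte markers, compared classes within their own fraction, or kept ASC1-like or dendritic-like clusters alone.

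Leaving out 1 pool at a time gave 0 to 0 members (stromal, cold), 0 to 38 (stromal, CL), 46 to 49 (stromal, both lines), 0 to 0, 0 to 15 and 0 to 0 (vascular), 0 to 0, 0 to 37 and 25 to 31 (immune), 0 to 33 and 0 to 41 for the cold response of stromal against vascular and immune cells, 0 to 7 and 0 to 25 for the CL response, and 89 to 96 and 93 to 99 genes in gated stromal and immune cells. The shares ranged from 10.0 to 21.9 (stromal, cold), 1.03 to 12.6 (stromal, CL), -0.489 to 0.181 (vascular, cold, 0.119 without cold replicate 1), 0.530 to 3.86 (vascular, CL), 6.23 to 7.40 (immune, cold) and -0.911 to 8.57 (immune, CL). The highest counts with CL came without CL replicate 2, where 10.6%, 4.83% and 27.6% of all genes passed (stromal, vascular, immune) and 3.43% and 12.6% in the CL response against vascular and immune cells. Those of the cold response of stromal against vascular and immune cells came without a CL pool, where 11.6% and 19.5% of all genes passed, and over both lines 14.4 to 31.2% (stromal) and 29.4 to 46.4% (immune) did. For gated against other cells, 38.3% (stromal) and 34.0% (immune) of all genes passed in the fits with every pool. A fit with 1 pool in an arm assumes that it varies like the other groups.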
